A study of Sorghum bicolor with 24 samples.

Results

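The genes described here are the MYB and PHR (PHOSPHATE STARVATION RESPONSE) transcription factor genes of sorghum (Sorghum bicolor) roots. They were chosen by name alone: a gene is a member if its deposited protein description contains "transcription factor MYB", "Myb-related protein", "Myb family transcription factor" or "PHOSPHATE STARVATION RESPONSE". This gave 155 of the 34129 genes with a Sobic identifier, the same 155 in both deposited tables, with 65 different descriptions. The rule uses no measured value.

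RNA was sequenced from roots in 24 libraries, which form 8 groups of 3. In the phosphorus experiment, P deficiency on day 4, mock on day 4, P deficiency on day 7 and mock on day 7 make up 1 table of 12 libraries. In the second experiment, GR245DS (a synthetic strigolactone analogue) at 3 h, mock at 3 h, GR245DS at 6 h and mock at 6 h make up the other. No group is labelled with a genotype or an agent beyond these, and nothing states that the 3 libraries of a group came from separate plants, so the p-values measure only the spread between these libraries.

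MYB proteins bind DNA through repeats of the Myb domain and form one of the largest families of plant transcription factors. The R2R3 type controls phenylpropanoid and cell wall synthesis, the identity of root cell layers and responses to stress. The MYB-CC type, to which PHR and the PHR-like (PHL) proteins belong, switches on phosphate starvation genes in Arabidopsis and rice, and SPX proteins restrain it while phosphate is plentiful. The names used below come from the closest described protein of another species, mostly Arabidopsis or rice, and may not carry the same function in sorghum.

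The label held for most members but not for all. The deposited Pfam annotation names a Myb DNA-binding domain for 119 of the 155. For another 16, among them 10 of the 11 genes with phosphate signalling names, it names only the MYB-CC motif, a coiled coil, and for 20 it names neither. The 11 genes described as ALTERED PHOSPHATE STARVATION RESPONSE 1 (APSR1) match the words of the rule, but 0 of the 11 have either feature named, and they are kept apart below. Among the remaining 9 with neither are 3 genes described as Myb-related protein P, the EFM gene Sobic.002G016300 and the PHR1 gene Sobic.009G114300.

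The libraries of the phosphorus experiment held 32631226 to 45292506 counts each, and those of the GR245DS experiment 31677623 to 38706195. Levels are given as CPM, which are counts brought to a common library total after scaling with TMM factors. Folds are ratios of group means in CPM, and log2 fold changes with their standard errors (SE) come from edgeR's quasi-likelihood fit of the 12 libraries of a table. A gene is called, and said to be higher, lower, risen or fallen, where the Benjamini-Hochberg adjusted p of that test over all tested genes was below 0.05. Of the 155 members, 108 had enough counts to be tested in each experiment, 107 of them in both. Of the 47 others, 26 in each table had 0 counts in all 12 libraries. A member that is low everywhere could not be tested, so the counts below describe the tested members and not the whole family.

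On the authors' FPKM scale, which divides by gene length and so allows levels to be compared between genes, the tested members had a median of 7.7 FPKM in the phosphorus table, with means over the 12 libraries between 0.137 and 1040 FPKM. The most abundant was Sobic.009G016600, described as MYBAS2 of rice, at 1040 FPKM. Its neighbour by identifier, Sobic.009G016633, has the same description and followed at 573 FPKM. After them came MYB36 (Sobic.003G034500, 111 FPKM), EFM (Sobic.002G016300, 107 FPKM) and a further MYBAS2 (Sobic.008G133700, 104 FPKM). In the GR table the same neighbouring pair led with 1230 and 685 FPKM, and MYBAS1 (Sobic.005G224800) reached 181 FPKM. No source used here states how reads that match both neighbours were counted, so the split between the pair is uncertain.

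Before the members, their partners the SPX proteins, which bind PHR proteins in Arabidopsis and rice, bear on the labels. All 6 tested SPX genes were lower in P deficiency on both days, with a median log2 fold change of -6.45 on day 4 and -7.24 on day 7. Their summed level was 58.4 to 66.4 CPM in P deficiency and 2370 to 2710 CPM in mock on day 4, and 64.3 to 67.6 CPM in P deficiency and 2530 to 3010 CPM in mock on day 7. SPX genes are known to be induced by phosphate shortage in other plants, so the labels and this direction are at odds. Were the labels of these groups exchanged, every higher and lower given below for P deficiency would turn round, and the tally of day 4 would read 36 higher and 20 lower. In all 12 libraries of the GR table, where no group is labelled P deficient, the sum was 41.5 to 77.3 CPM. There PHR3 (Sobic.010G254300), picked for this comparison after its values were seen, had 8.30 to 20.5 CPM. In the phosphorus table it had 7.97 to 16.6 CPM in the libraries labelled P deficiency and 106 to 148 CPM in the mock libraries. Not every member went this way. For the MYB36 gene of the closing paragraph, levels in the GR table lay nearer to mock of the phosphorus table than to P deficiency. How many members went each way was not counted. The tables were normalized separately, so these levels are set side by side and not tested.

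In the libraries labelled P deficiency, more members were lower than higher on both days. On day 4, 20 members were higher and 36 were lower than in mock, which is 51.9% of the 108 tested, against 38.6% of the 25137 genes tested in that comparison (20.3% higher and 18.4% lower). On day 7, 22 members were higher and 35 lower, which is 52.8% of the tested members, against 35.6% of all tested genes (17.4% higher and 18.2% lower). Across the tested members the log2 fold changes had medians of -0.34 on day 4 and -0.27 on day 7, beside 0.02 and -0.02 for all tested genes. Past a 2-fold limit, 15 were higher and 25 lower on day 4, and 13 higher and 26 lower on day 7. The share of all genes called past that limit was 18.6% on day 4 and 17.9% on day 7.

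The calls of both days overlapped in kind. Of the members called, 16 were higher on both days and 30 were lower on both, and 0 were called in opposite directions. The same overlap was not counted over all tested genes, so it is not read as particular to the members. Among all tested genes, 0.465% differed between the days by the interaction test given below. On day 4 alone 4 were higher and 6 lower, and on day 7 alone 6 were higher and 5 lower. Leaving out each of the 6 libraries of a comparison in turn, 44 of the 56 calls of day 4 and 40 of the 57 calls of day 7 held every time. Without the 11 APSR1-like genes the calls were 19 higher and 34 lower of 97 on day 4, and 20 higher and 33 lower of 97 on day 7.

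**Figure D1:**
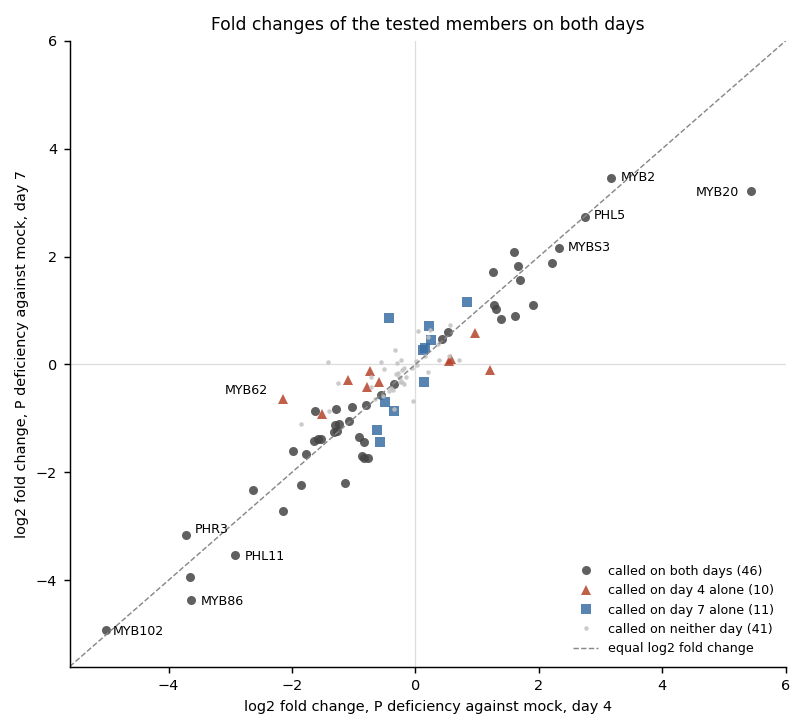
Each point is 1 of the 108 tested members, with the log2 fold change of P deficiency against mock on day 4 (x axis) and on day 7 (y axis); shapes and colours show on which day it was called, and the dashed line marks equal values. The 46 members called on both days lie in the lower left and upper right. Of the labelled points, PHL5 and MYB2 lie near the line, and MYB20 and MYB62, the latter called on day 4 alone, lie off it.

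Within the phosphate signalling names, 10 of 11 genes were tested. On day 4 they gave 1 higher and 5 lower (60% called, against 38.6% of all tested genes). On day 7 they gave 4 higher and 5 lower (90%, against 35.6%). The genes nearest to the central regulators of rice, PHR1 and PHR2, differed by less than 2-fold, while a PHR3, a PHL5 and a PHL11 differed by more than 6-fold. In bulk roots, fewer cells of a type and less RNA per cell cannot be told apart. The direction throughout is that of the deposited labels.

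The PHR1 gene Sobic.001G384300 had 82, 66.7 and 68 CPM in P deficiency on day 4, against 67.4, 61.1 and 66.2 CPM in mock. The day 7 values were 75.5, 77 and 72.5 CPM in P deficiency, against 67.4, 56.9 and 58.1 CPM in mock. The groups overlapped on day 4 and stood apart on day 7, where the log2 fold change was 0.30 ± 0.11 (SE, adjusted p = 0.0473 by edgeR). That call was lost on leaving out any of 5 of the 6 libraries of day 7, all except the first mock library, with log2 fold changes of 0.27 to 0.34. The PHR2 gene Sobic.002G121600, whose rice counterpart is a main activator of phosphate starvation genes, had 91.7, 100 and 73.7 CPM in P deficiency on day 7, against 70.5, 60.6 and 62.6 CPM in mock. Its log2 fold change was 0.45 ± 0.14 (adjusted p = 0.021 by edgeR), and the call was lost without the first or second P deficiency library or without the second or the third mock library (0.36 to 0.43). On day 4 the 2 groups overlapped (0.26 ± 0.14, adjusted p = 0.163 by edgeR).

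The second PHR2 gene, Sobic.004G342200, had 6.72, 6.70 and 6.61 CPM in P deficiency on day 7, against 4.42, 4.78 and 2.96 CPM in mock. All P deficiency libraries lay above all mock libraries, and the log2 fold change was 0.72 ± 0.21 (adjusted p = 0.0181 by edgeR). Without the third mock library, the lowest of the 6, it was 0.54 and missed the threshold. On day 4 this gene showed 0.22 ± 0.21 (adjusted p = 0.432 by edgeR). The other PHR1 gene, Sobic.009G114300, was not tested, with 1 count in the 12 libraries together.

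Of the PHR3 genes, Sobic.010G254300 changed most among all genes with the PHR name. It had 7.97, 9.75 and 11.9 CPM in P deficiency on day 4, against 144, 112 and 136 CPM in mock. On day 7 the libraries showed 16.6, 15.2 and 12.2 CPM in P deficiency, against 148, 106 and 143 CPM in mock. Every P deficiency library was far below every mock library on both days. The gene was 13.2-fold lower on day 4 (log2 fold change -3.72 ± 0.20) and 9.02-fold lower on day 7 (-3.17 ± 0.19), with adjusted p = 2.01e-08 and 5.68e-08 by edgeR. Its relative Sobic.004G036500 had 1.67 ± 0.124 CPM in P deficiency and 4.09 ± 0.712 CPM in mock on day 4 (SD, n = 3 each). It fell by 1.29 on the log2 scale on day 4 and by 0.83 on day 7, and the day 7 call was lost without the first or the third P deficiency library or the first mock library (-0.83 to -0.61).

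The PHL genes went in both directions. PHL5 (Sobic.006G256200) had 45.1, 47.3 and 42.4 CPM in P deficiency on day 4, against 6.72, 7.67 and 5.86 CPM in mock. On day 7 it had 47.9, 42.5 and 42.1 CPM in P deficiency, against 5.77, 6.5 and 7.63 CPM in mock. The groups were wide apart and the libraries within each were close, and the gene was 6.66-fold higher on both days (log2 fold change 2.74 ± 0.14 each time, adjusted p = 2.01e-08 and 1.67e-08 by edgeR). PHL5 had the smallest adjusted p of the called members that rose.

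PHL11 (Sobic.006G202300) went the other way, with 1.40, 2.09 and 2.37 CPM in P deficiency on day 4, against 17.1, 14.2 and 13.3 CPM in mock. The day 7 values were 2.50, 1.96 and 2.08 CPM in P deficiency, against 22.5, 24.9 and 28.2 CPM in mock. It was 7.6-fold lower on day 4 (-2.92 ± 0.20) and 11.5-fold lower on day 7 (-3.53 ± 0.21). The second PHL11 gene, Sobic.004G270600, was lower by 1.32 and 1.25 on the log2 scale on the same days, with 9.49 ± 2.55 CPM in P deficiency and 23.7 ± 2.36 CPM in mock on day 4 (SD, n = 3 each).

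PHL7 was represented by a pair of genes, of which 1 was called. Sobic.002G161800 had 88.2, 81.1 and 85.5 CPM in P deficiency on day 4, against 185, 218 and 210 CPM in mock, and was 2.41-fold lower on day 4 and 2.35-fold lower on day 7. For Sobic.009G180500 the log2 fold change was 0.01 ± 0.13 on day 4 and 0.06 ± 0.13 on day 7, with 25.8 ± 2.79 CPM in P deficiency and 25.5 ± 1.86 CPM in mock on day 4. The difference between the 2 genes was not tested.

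**Figure D2:**
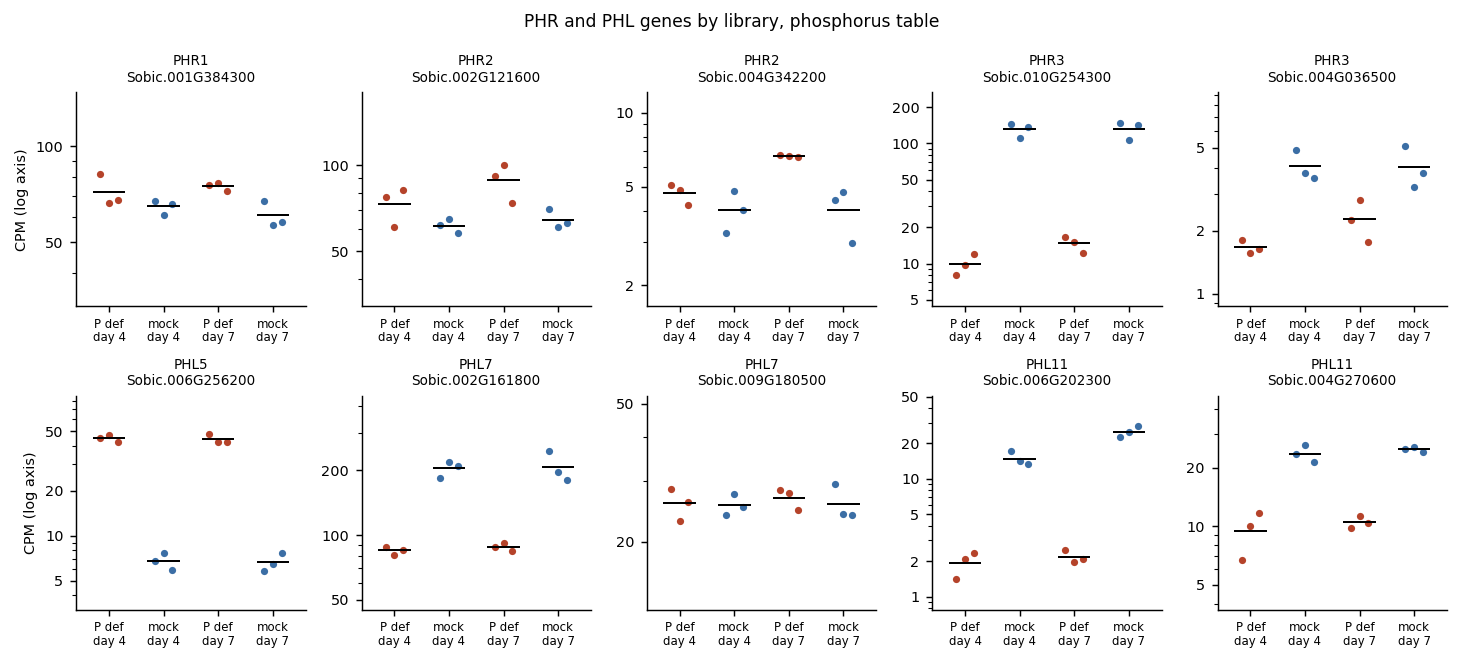
CPM (log axis) of the 10 tested PHR and PHL genes in the 12 libraries of the phosphorus table; each dot is a library (red for P deficiency, blue for mock) and the bar is the group mean. PHR3 (Sobic.010G254300) and PHL11 (Sobic.006G202300) are far lower in P deficiency, PHL5 is far higher, and the PHR1 and PHR2 genes lie close together.

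The APSR1-like genes, named after an Arabidopsis protein needed for root meristem maintenance, were all tested. On day 4, 1 was higher and 2 were lower (27.3% called, against 38.6% of all tested genes), and on day 7, 2 were higher and 2 lower (36.4%, against 35.6%). Sobic.002G281900 was 3.08-fold higher on day 4 (6.79, 7.82 and 4.98 CPM in P deficiency, against 2.02, 2.31 and 2.03 CPM in mock). On day 7 its groups overlapped and the log2 fold change was 0.90 ± 0.32, a call that was lost on leaving out any of 4 libraries (0.60 to 0.94): the second or the third of P deficiency, or the first or the third of mock. Sobic.004G060000 was lower on both days, by 0.84 and 1.43 on the log2 scale.

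A further APSR1-like gene, Sobic.002G286200, was 1.26-fold lower on day 4 and 1.29-fold lower on day 7. The day 7 call was lost without the third P deficiency library (-0.30). Sobic.005G180900 was 1.21-fold higher on day 7, a call that was lost without any 1 of the 6 libraries of that day (0.25 to 0.32). Among the 7 others, Sobic.002G425101 had the largest estimate (-1.26 ± 0.62 on day 4, from 15 counts in P deficiency and 32 in mock), and the other 6, Sobic.001G389100, Sobic.002G076866, Sobic.002G279400, Sobic.003G200100, Sobic.006G178800 and Sobic.007G202000, had log2 fold changes between -0.44 and 0.27 over both days.

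Among the phloem and other GARP names (GARP proteins share a Myb-like domain), 11 of 15 were tested. On day 4, 1 was higher and 5 were lower (54.5% called, against 38.6% of all tested genes). On day 7, 1 was higher and 7 were lower (72.7%, against 35.6%). APL (Sobic.007G137300), needed for phloem identity in Arabidopsis, had 24.4, 23.4 and 21.5 CPM in P deficiency on day 4, against 62.4, 81.2 and 69.3 CPM in mock. On day 7 the libraries showed 51.9, 49.9 and 53.8 CPM in P deficiency, against 82, 113 and 87.8 CPM in mock. The groups stood apart on both days, with a 3.08-fold decrease on day 4 (-1.62 ± 0.14) and 1.82-fold on day 7 (-0.86 ± 0.14). Of the 3 genes described as Myb-related protein 2 that were called, all were lower. Some of these calls depended on single libraries, in genes named after their values were seen. Sobic.001G386700 lost its call on leaving out any of 3 libraries on day 4 (-0.56) and any of 4 on day 7 (-0.57). Sobic.009G178000 lost its day 7 call on leaving out any of 3 libraries (-0.70). MPH1 (Sobic.010G224200), named for a rice gene of plant height and mentioned here after its values were seen, was 3.98-fold lower on day 4 and 3.05-fold lower on day 7.

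The EFM genes moved in opposite directions. EFM represses flowering in Arabidopsis, and the deposited protein match names both sorghum genes HHO2, a family that links nitrate and phosphate signalling in Arabidopsis. Sobic.008G147101 had 158, 129 and 145 CPM in P deficiency on day 4, against 32.7, 34.4 and 26.6 CPM in mock. It was 4.62-fold higher on day 4 (2.21 ± 0.15) and 3.67-fold higher on day 7 (1.88 ± 0.15). Sobic.002G016300, one of the most abundant members, had 104, 90.9 and 75.7 CPM in P deficiency on day 4, against 261, 281 and 309 CPM in mock. This second gene was 3.15-fold lower on day 4 (-1.65 ± 0.17) and 2.67-fold lower on day 7 (-1.42 ± 0.17). In P deficiency every library of the first gene lay above every mock library, and in the second gene every one lay below.

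Most called genes with secondary wall names were lower. Of 12 tested, 1 was higher and 5 were lower on day 4 (50% called, against 38.6% of all tested genes). On day 7, 2 were higher and 5 lower (58.3%, against 35.6%). Some calls were lost on leaving out libraries, in genes named after their values were seen. On day 4 these were MYB86 Sobic.002G308400 (-0.92, lost in 1 fit), MYB86 Sobic.002G388700 (-0.86, in 4) and MYB20 Sobic.002G196100 (-0.80, in 3). On day 7 the rise of MYB20 Sobic.002G196000 (1.16) was lost in all 6 such fits, and the fall of Sobic.002G196100 (-0.76) in 3. MYB86 (Sobic.007G039100) had 1.04, 1.05 and 1.17 CPM in P deficiency on day 4, against 10.5, 15.5 and 14.6 CPM in mock. On day 7 it had 0.555, 0.490 and 0.715 CPM in P deficiency, against 10.6, 14.1 and 11.4 CPM in mock. The groups were about an order of magnitude apart, with a 12.4-fold decrease on day 4 (-3.63 ± 0.22) and a 20.5-fold decrease on day 7 (-4.36 ± 0.24). MYB61 (Sobic.003G136600), linked to xylem formation in Arabidopsis and named after its values were seen, fell by 1.03 on day 4. Its fall of 0.79 on day 7 was lost without the second or the third library of either group, with log2 fold changes of -0.94 to -0.58 over all 6 such fits.

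MYB20 activates lignin and phenylalanine synthesis in Arabidopsis. The MYB20 gene Sobic.007G132600, also named after its values were seen, was higher: it had 1.53, 0.682 and 1.91 CPM in P deficiency on day 4, and 0, 0 and 0.0781 CPM in mock. With 3 counts in all in mock, the ratio of 52.9 has a 95% counting interval of 15.7 to 229. On day 7 it was 9.81-fold higher, with 0.925, 2.21 and 1.1 CPM in P deficiency and 0.342, 0.0893 and 0 CPM in mock. The fitted log2 fold changes of 5.44 ± 1.06 and 3.22 ± 0.81 moved to 8.65 without the third mock library of day 4 and to 4.73 without the first mock library of day 7.

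MYB52 and MYB54, which Arabidopsis work links to secondary wall thickening, stood under the remaining names here. MYB54 (Sobic.001G110900) had 5.83, 6.18 and 7.61 CPM in P deficiency on day 4, against 24.5, 23.3 and 19.4 CPM in mock. The 3.43-fold decrease on day 4 (-1.78 ± 0.15) and the 3.16-fold decrease on day 7 (-1.66 ± 0.15) were close in size. Of 8 tested genes under remaining names, 1 was higher and 4 lower on day 4 (62.5% called, against 38.6% of all tested genes). On day 7, 0 were higher and 3 lower (37.5%, against 35.6%). One of the 4 lower on day 4 was MYB62 (Sobic.003G087600), named after its values were seen, whose Arabidopsis namesake responds to phosphate starvation. It had 0.712, 0.318 and 0.561 CPM in P deficiency on day 4, against 1.99, 1.68 and 3.33 CPM in mock, and on day 7 its groups overlapped (-0.65 ± 0.50, adjusted p = 0.333 by edgeR).

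Genes named for repressors of phenylpropanoid synthesis and for related barley and maize proteins followed the same direction. Of 12 tested, 1 was higher and 6 were lower on each day (58.3% called). Over all tested genes, 38.6% were called on day 4 and 35.6% on day 7. Of the lower calls of day 7, that of MYB4 (Sobic.006G148000, -0.32) was lost on leaving out any of 5 libraries. This gene is named after its values were seen. Zm1 (Sobic.006G199800) had 5.12, 4.98 and 6.18 CPM in P deficiency on day 4, against 24.8, 21.3 and 25.9 CPM in mock. It was 4.42-fold lower on day 4 (-2.14 ± 0.16) and 6.6-fold lower on day 7 (-2.72 ± 0.16). Of 3 tested genes named for the barley protein Hv33, 2 were lower on both days. Sobic.009G216900 had 2.84, 1.88 and 2.68 CPM in P deficiency on day 7, against 11.1, 12.8 and 11 CPM in mock, a 4.7-fold decrease. Sobic.003G270300 had 9.52, 8.01 and 7.45 CPM in P deficiency on day 7, against 30.2, 46.9 and 37.1 CPM in mock, a 4.57-fold decrease. The other Hv33 gene, Sobic.003G183800, named after its values were seen, was not called on either day (-0.66 ± 0.28 on day 4, adjusted p = 0.0793, and -0.64 ± 0.28 on day 7, adjusted p = 0.0905 by edgeR). The gene that rose, Zm38 (Sobic.007G177100, named after its values were seen), was 3.24-fold higher on day 4 and 2.95-fold higher on day 7.

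A gene under the remaining names, MYB1 (Sobic.001G340900), is mentioned here after its values were seen. Its deposited protein match is an anthocyanin regulatory C1 protein. It was higher on day 4 (log2 fold change 0.58), a call lost on leaving out any of 5 libraries, and was not called on day 7. The only tested gene under flavonoid and anthocyanin names was the Myb-related protein P gene Sobic.003G145100. P is the maize regulator of phlobaphenes, red flavonoid pigments. It had 0.0822, 0.728 and 1.53 CPM in P deficiency on day 4, against 9.51, 9.13 and 11.1 CPM in mock. The day 7 values were 0.308, 0.762 and 0.774 CPM in P deficiency, against 12.6, 7.97 and 8.13 CPM in mock. Despite the spread among the P deficiency libraries the groups did not overlap. The gene was 12.7-fold lower on day 4 (-3.65 ± 0.56, and -4.56 without the third P deficiency library) and 15.6-fold lower on day 7 (-3.94 ± 0.58).

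Enzymes of the pathways that these regulators control in other plants were counted beside them. The list of lignin and cellulose synthesis names holds the cellulose synthases of primary walls as well. Of its 60 tested genes, 8 were higher and 30 lower on day 4 (63.3% called, against 38.6% of all tested genes). On day 7, 7 were higher and 28 lower (58.3%, against 35.6%), with medians of -0.69 on day 4 and -0.70 on day 7. Their summed level was 2940 to 3930 CPM in P deficiency and 8150 to 8910 CPM in mock on day 4. Of 56 tested flavonoid enzymes, 11 were higher and 21 lower on day 4 (57.1% called, against 38.6% of all tested genes). On day 7, 11 were higher and 24 lower (62.5%, against 35.6%). Of the bHLH and WD40 proteins that form complexes with MYB proteins, 2 of 5 were tested, and 1 was lower on both days. It is Sobic.006G175700, named for the maize anthocyanin regulator R-S and singled out after its values were seen, with 0 counts in all P deficiency libraries, against 0.705, 1.35 and 2.55 CPM in mock on day 4 and 4.69, 2.37 and 3.54 CPM in mock on day 7.

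The list used as root hair markers holds 17 genes that share 1 description, 5-pentadecatrienyl resorcinol O-methyltransferase. Whether each of them marks root hairs was not tested. Of 9 tested, 0 were higher and 4 lower on day 4 (44.4% called, against 38.6% of all tested genes). On day 7, 0 were higher and 6 lower (66.7%, against 35.6%). The sum over all 17 was 201 to 278 CPM in P deficiency and 677 to 911 CPM in mock on day 4, and 206 to 246 CPM in P deficiency and 531 to 869 CPM in mock on day 7. At 0 in every library of the group were 8 of the 17 in P deficiency and 5 in mock on day 4, and 5 in each group on day 7. Leaf markers stayed low, with sums over 15 genes of 11.6 to 13.3 CPM in P deficiency and 6.93 to 10.6 CPM in mock on day 4, and of 15.3 to 19.1 CPM in P deficiency and 11.2 to 15.8 CPM in mock on day 7. On day 4, 2 of 10 tested leaf markers were higher and 0 lower (20% called, against 38.6% of all tested genes). On day 7, 3 were higher and 0 lower (30%, against 35.6%). The part of these markers in the members' values was not tested.

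Among endodermis and suberin names, 3 of 7 tested MYB36 genes rose on both days and the other 4 were not called. Of 12 tested, 4 were higher and 1 lower on day 4 (41.7% called, against 38.6% of all tested genes). On day 7, 4 were higher and 2 lower (50%, against 35.6%). MYB36 directs formation of the Casparian strip, the diffusion barrier of the endodermis, in Arabidopsis. The MYB36 gene Sobic.003G034500 had 246, 195 and 187 CPM in P deficiency on day 4, against 74, 56.7 and 67.0 CPM in mock. On day 7 the libraries showed 266, 298 and 284 CPM in P deficiency, against 86.7, 65.4 and 88.0 CPM in mock. It was 3.18-fold higher on day 4 (1.67 ± 0.15) and 3.53-fold higher on day 7 (1.82 ± 0.15), without overlap. Sobic.004G322800 was 3.0-fold higher on day 4 and 4.23-fold higher on day 7, and Sobic.009G224500 2.38-fold and 3.29-fold higher.

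The MYB93 genes, named for an Arabidopsis regulator of lateral roots that is expressed in the endodermis, are mentioned after their values were seen. Sobic.004G231700 had 22.1, 27.7 and 37.9 CPM in P deficiency on day 4, against 98.7, 62.1 and 56.4 CPM in mock, a 2.48-fold decrease. Its 2.19-fold decrease on day 7 was lost without the last of the mock libraries (-0.82). Sobic.010G008000 had 31.8, 22.6 and 16 CPM in P deficiency on day 7, against 10.8, 11.1 and 16.8 CPM in mock. The groups overlapped, and its 1.82-fold increase (0.86 ± 0.27, adjusted p = 0.0244 by edgeR) was lost without the first P deficiency library or without the first or second mock library. The deposited protein match of Sobic.010G008000 names a snRNA-activating complex subunit and not a MYB93. Sobic.007G224800 had 8.13 ± 3.21 CPM in P deficiency and 12.6 ± 3.18 CPM in mock on day 4 (SD, n = 3 each), and was not called (-0.63 ± 0.32, adjusted p = 0.134 by edgeR). On day 7 it had 11.7, 9.64 and 5.09 CPM in P deficiency, against 16.7, 20.9 and 23.3 CPM in mock, a 2.31-fold decrease without overlap (-1.21 ± 0.32, adjusted p = 0.00971 by edgeR).

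A list of CASP and acyltransferase names was counted beside these regulators. Of its 68 genes, 4 are described as Casparian strip membrane proteins, 39 as CASP-like proteins, 20 as glycerol-3-phosphate acyltransferases, which include enzymes of general membrane lipids, and 5 as feruloyl transferases. Of 48 tested, 4 were higher and 21 lower on day 4 (52.1% called, against 38.6% of all tested genes). On day 7, 3 were higher and 16 lower (39.6%, against 35.6%).

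Of the stress and abscisic acid names that were called, most were lower, though on day 7 the share called was below that of all tested genes. Of 12 tested, 1 was higher and 5 were lower on day 4 (50% called, against 38.6% of all tested genes). On day 7, 1 was higher and 3 were lower (33.3%, against 35.6%). Some lower calls were lost on leaving out single libraries, in genes named after their values were seen. These were MYB44 Sobic.004G070900 on day 4 (-0.79, lost in 5 fits) and MYB2 Sobic.006G142000 on day 7 (-1.44, in 2). MYB2 of rice, a gene that raises tolerance of salt and cold, is the name of Sobic.009G032000, the one that rose. It had 1.97, 1.57 and 1.38 CPM in P deficiency on day 4, against 0.0920, 0.120 and 0.312 CPM in mock. On day 7 it had 0.986, 1.88 and 1.88 CPM in P deficiency, against 0.147, 0.179 and 0.0924 CPM in mock. The increase was 9.38-fold on day 4 (3.17 ± 0.47, and 3.88 without the third mock library) and 11.4-fold on day 7 (3.45 ± 0.48), from 19 and 17 counts in all in the mock groups.

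Of the genes that fell, MYB102 and MYB44 are named after their values were seen. MYB102 (Sobic.002G337800), an osmotic stress and wounding gene in Arabidopsis, had 0.110, 0.159 and 0.281 CPM in P deficiency on day 4, against 5.67, 5.15 and 7.42 CPM in mock. It was 33.2-fold lower on day 4 (-5.02 ± 0.55) and 32.2-fold lower on day 7 (-4.92 ± 0.58, and -6.95 without the second P deficiency library, the only one above 0.1 CPM that day). MYB44 (Sobic.002G141300), which takes part in abscisic acid responses in Arabidopsis, had 52.3 ± 14.7 CPM in P deficiency and 156 ± 16.3 CPM in mock on day 4 (SD, n = 3 each), a 2.98-fold decrease.

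Names of the single-repeat MYBS proteins, which bind sugar-responsive amylase promoters in rice, rose where they were called. Of 7 tested genes under sugar and starch names, 5 were higher and 0 lower on day 4 (71.4% called, against 38.6% of all tested genes). On day 7, 4 were higher and 0 lower (57.1%, against 35.6%). MYBS3 (Sobic.003G034300) had 56.5, 47.7 and 42.1 CPM in P deficiency on day 4, against 7.82, 12.4 and 8.98 CPM in mock. The day 7 values were 68.3, 92.7 and 99.8 CPM in P deficiency, against 29.3, 17.2 and 12.3 CPM in mock. It was 5.0-fold higher on day 4 (2.32 ± 0.29) and 4.44-fold higher on day 7 (2.15 ± 0.28). The MYBS3 gene Sobic.003G211200 was 2.61-fold higher on day 4 and 1.79-fold higher on day 7.

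MYBS1 (Sobic.003G132300) had 17.6, 15.3 and 16.3 CPM in P deficiency on day 4, against 6.44, 6.95 and 7.08 CPM in mock, a 2.41-fold increase, and on day 7 it was 2.14-fold higher. Another MYBS3 gene, Sobic.007G037100, rose 1.44-fold on day 4 and 1.52-fold on day 7, and its day 4 call was lost without the first P deficiency library or the third mock library (0.39 to 0.43). MYBS2 (Sobic.001G295600) had 205 ± 22.3 CPM in P deficiency and 142 ± 15.8 CPM in mock on day 4 (SD, n = 3 each), and this call was lost without the second P deficiency library or the third mock library (0.43 each time). On day 7 its log2 fold change was 0.06 ± 0.14 (adjusted p = 0.793 by edgeR).

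The group of gibberellin and anther names takes in the MYBAS genes, whose descriptions state neither role. These genes hold the highest levels of the family. Of 6 tested genes in the group, 3 were higher and 1 lower on day 4 (66.7% called, against 38.6% of all tested genes). On day 7, 2 were higher and 1 lower (50%, against 35.6%). The MYBAS2 gene Sobic.009G016600 had 3920, 2900 and 3050 CPM in P deficiency on day 4, against 701, 1060 and 877 CPM in mock. On day 7 the libraries showed 2740, 3260 and 3060 CPM in P deficiency, against 2050, 1440 and 746 CPM in mock. The mock libraries of day 7 were widely spread but stayed below P deficiency, and the increase was 3.74-fold on day 4 (1.90 ± 0.29) and 2.14-fold on day 7 (1.1 ± 0.29). Its neighbour Sobic.009G016633 was 2.48-fold higher on day 4 and 2.03-fold higher on day 7. The remaining MYBAS2 gene, Sobic.008G133700, had 80.9, 61.1 and 73.3 CPM in P deficiency on day 4, against 152, 244 and 224 CPM in mock, and was 2.88-fold lower on day 4 and 2.6-fold lower on day 7.

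MYBAS1 (Sobic.005G224800) overlapped between groups on both days, with 98.5 ± 3.08 CPM in P deficiency and 118 ± 32.5 CPM in mock on day 4. MYB101 (Sobic.001G508400), a gibberellin-related pollen tube gene in Arabidopsis, was 2.33-fold higher on day 4 at 0.972 ± 0.230 CPM in P deficiency and 0.417 ± 0.122 CPM in mock (SD, n = 3 each). Its call was lost on leaving out any of 5 libraries of day 4, all except the first P deficiency library (0.99 to 1.32). Of 6 tested cell cycle names, 2 were called on day 4 (33.3%, against 38.6% of all tested genes). On day 7, 1 was called (16.7%, against 35.6%). MYB3R-2 (Sobic.007G053700) was 1.34-fold higher on day 4 and 1.39-fold higher on day 7. MYB3R-4 (Sobic.004G123400), an activator of mitotic genes in Arabidopsis, was 1.51-fold lower on day 4. Neither was stable to leaving out libraries: MYB3R-2 lost its day 4 call in 5 of 6 such fits, all except the one without the second P deficiency library (0.28 to 0.43), and its day 7 call without the second P deficiency or second mock library (0.34 and 0.46), and MYB3R-4 lost its call without the first mock library (-0.57).

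**Figure D3:**
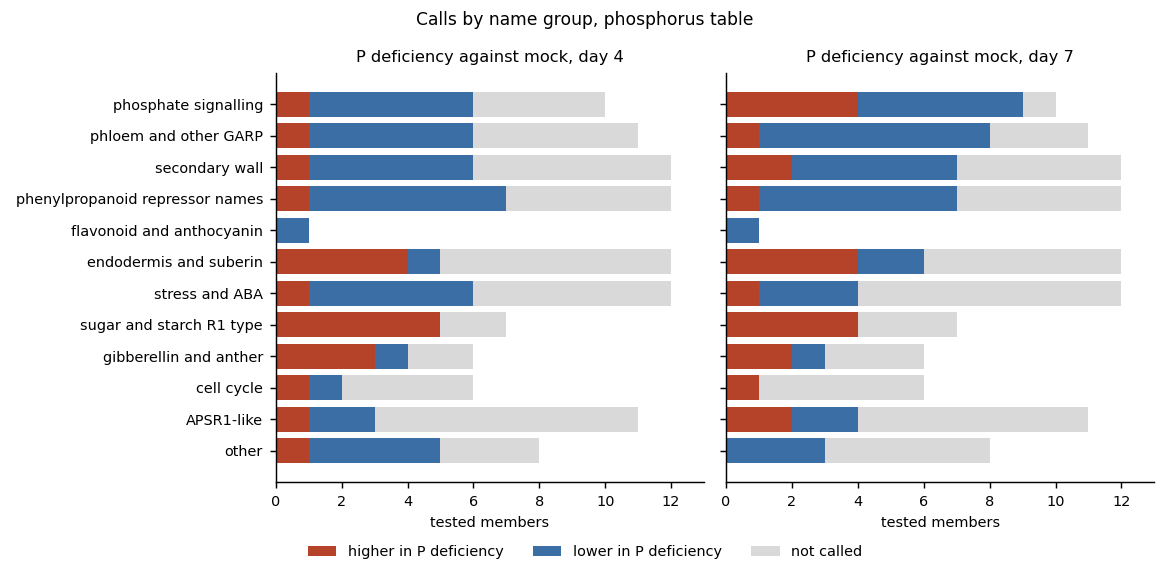
Number of tested members (x axis) higher, lower or not called in P deficiency against mock, by name group, on day 4 (left) and day 7 (right). Lower calls prevail for phloem and GARP, secondary wall, phenylpropanoid and stress names, higher calls for endodermis and sugar names, and the flavonoid group holds 1 tested gene. Some of these calls were lost on leaving out single libraries.

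**Figure D4:**
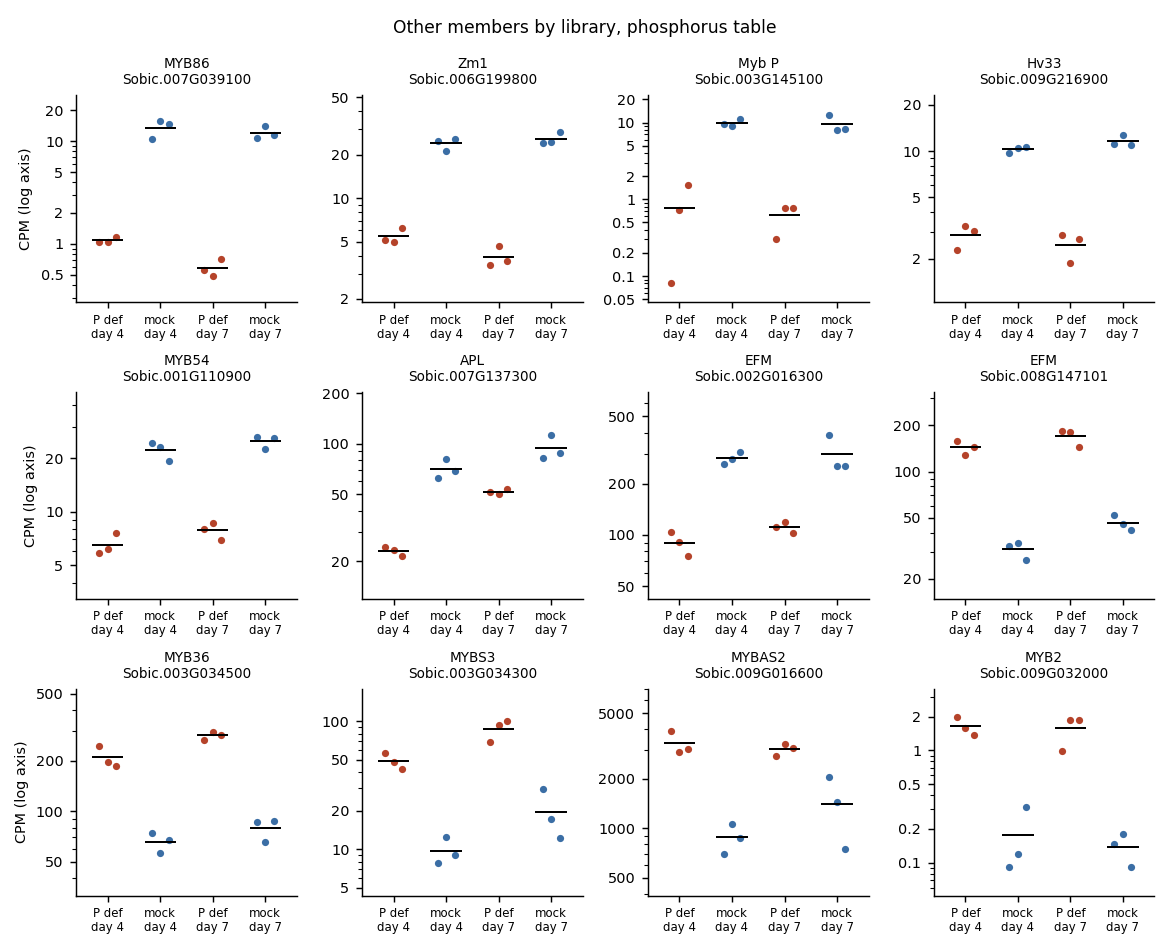
CPM (log axis) of 12 other members in the 12 libraries of the phosphorus table; each dot is a library (red for P deficiency, blue for mock) and the bar is the group mean. The EFM genes are mirror images, and the P deficiency libraries of MYB86 (0.490 to 1.17 CPM) sit far below its mock libraries (10.5 to 15.5 CPM).

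A difference between the responses of day 7 and day 4 was tested as an interaction. It was called for 1 of the 108 members, against 0.465% of all tested genes (0.267% higher and 0.199% lower). This was MYB52 (Sobic.005G104800), with 11.9, 11.1 and 13.1 CPM in P deficiency on day 4, against 20.9, 21.6 and 19.0 CPM in mock, and with 8.66, 7.38 and 7.83 CPM in P deficiency on day 7, against 28.4, 26.2 and 24.5 CPM in mock. The P deficiency libraries lay below mock on both days, and further below on day 7. The response was -0.77 ± 0.12 on day 4 and -1.73 ± 0.13 on day 7, and their difference -0.96 ± 0.18 (adjusted p = 0.0349 by edgeR). Leaving out any 1 of 11 of the 12 libraries, all except the third mock library of day 7, took the adjusted p to between 0.0532 and 0.125. DESeq2 called 4 members, adding Hv33 (Sobic.003G270300, -1.02), the Myb-related protein gene Sobic.003G373000 (0.83) and APL (Sobic.007G137300, 0.79), against 1.35% of the genes it fitted.

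Between the mock groups, day 7 against day 4, 2 members were higher and 0 lower, against 1.34% of all tested genes (0.847% higher and 0.497% lower). Both are MYBS3 genes. Sobic.003G211200 had 54.6, 73.5 and 45.2 CPM in mock on day 7, against 26.5, 30.1 and 21.6 CPM in mock on day 4 (log2 fold change 1.15). Sobic.001G297500 had 98.7, 96.7 and 94 CPM in mock on day 7, against 68.6, 64.7 and 63 CPM in mock on day 4 (0.56). The first call was lost without any 1 of 4 libraries, the 3 of day 4 and the second of day 7, and the second call without any 1 of 5, all except the first of day 7 (0.91 to 1.24 and 0.51 to 0.59). Without the first mock library of day 7, 7 members were called, against 2.91% of the 25510 genes tested in that fit. DESeq2 called 8, against 2.79% of the genes it fitted, with 7 higher and MYB62 (Sobic.003G087600) lower.

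GR245DS moved 0 of the 108 tested members past the threshold of edgeR's test at 3 h, against 1.01% of the 24814 genes tested (0.995% higher and 0.0121% lower). At 6 h it moved 0, against 0.484% of them (0.48% higher and 0.00403% lower). At an unadjusted p below 0.05 there were 10 members (9.26%) at each time, against 7.91% of all tested genes at 3 h and 6.15% at 6 h. Libraries that share a replicate number deviated together in this experiment, so the fit with the replicate number as a block is given beside the unblocked one. With the block, 2 members were higher and 1 lower at 3 h, against 3.13% of all tested genes (2.56% higher and 0.576% lower), and 2 were higher and 1 lower at 6 h, against 2.05% (1.53% higher and 0.52% lower). DESeq2 without the block called 2 higher and 1 lower at 3 h, against 1.93% of the genes it fitted (1.7% higher and 0.229% lower), and 1 higher and 2 lower at 6 h, against 1.08% (0.913% higher and 0.164% lower). The genes concerned are named here after their values were seen.

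MYB93 (Sobic.010G008000) was called by the blocked fit and by DESeq2 at both times. At 3 h it had 6.30, 8.51 and 3.93 CPM in GR245DS, against 2.61, 2.14 and 1.97 CPM in mock. At 6 h it had 5.15, 6.41 and 6.34 CPM in GR245DS, against 1.72, 2.62 and 1.25 CPM in mock. All GR245DS libraries lay above all mock libraries of their time. The log2 fold change was 1.48 ± 0.34 at 3 h (adjusted p = 0.0889 by edgeR, and 0.0189 with the block) and 1.68 ± 0.34 at 6 h (adjusted p = 0.0749 by edgeR, and 0.00939 with the block). Another MYB93 gene, Sobic.007G224800, had 19.3, 11.1 and 6.61 CPM in GR245DS at 6 h, against 4.22, 4.24 and 1.92 CPM in mock (1.83 ± 0.68, adjusted p = 0.635 by edgeR, and 0.0224 with the block). At 3 h its groups overlapped, although each GR245DS library was above the mock library of its own number. The remaining MYB93 gene, Sobic.004G231700, had 21.1, 10.6 and 9.66 CPM in GR245DS at 6 h, against 8.23, 9.65 and 1.59 CPM in mock. It was not called at 3 h (1.02 ± 0.71, adjusted p = 0.828 by edgeR, and 0.188 with the block) or at 6 h (1.09 ± 0.71, adjusted p = 1 by edgeR, and 0.0977 with the block).

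MYB39 (Sobic.006G198700), a regulator of suberin in the Arabidopsis endodermis, had 1.34, 4.16 and 1.78 CPM in GR245DS at 3 h, against 0.639, 0.157 and 0.453 CPM in mock. The groups did not overlap, and the log2 fold change was 2.54 ± 0.56 (adjusted p = 0.0726 by edgeR, and 0.041 with the block). At 6 h it was 0.86 ± 0.53. The CASP and acyltransferase names gave 0 calls of 47 tested at either time, against 1.01% of all tested genes at 3 h and 0.484% at 6 h.

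In the other direction, MYBS3 (Sobic.009G072200) had 31.5, 32.4 and 25.2 CPM in GR245DS at 3 h, against 45.9, 46.1 and 41.7 CPM in mock (-0.58 ± 0.13, adjusted p = 0.082 by edgeR, and 0.0216 with the block). MYB36 (Sobic.003G034500) had 12.5, 13.4 and 19.1 CPM in GR245DS at 6 h, against 36.2, 31.4 and 58.8 CPM in mock (-1.49 ± 0.40, adjusted p = 0.285 by edgeR, and 0.00543 with the block). MYB20 (Sobic.007G132600) had 0.793, 1.08 and 0.587 CPM in GR245DS at 6 h, against 5.24, 2.91 and 1.5 CPM in mock (-1.96 ± 0.50, adjusted p = 0.22 by edgeR). In each of the 3, all GR245DS libraries lay below all mock libraries at the time given. DESeq2, run without the block, called MYB20 with an adjusted p of 0.0141, while the blocked fit did not call it.

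**Figure D5:**
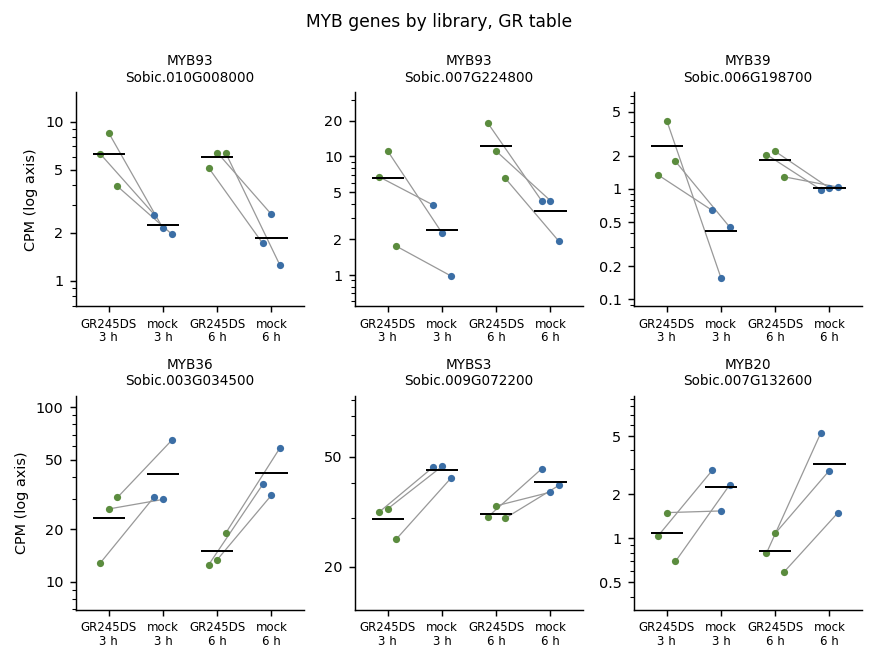
CPM (log axis) of 6 MYB genes in the 12 libraries of the GR table; each dot is a library (green for GR245DS, blue for mock), the bar is the group mean, and grey lines join libraries with the same replicate number. MYB93 (Sobic.010G008000) is higher in every GR245DS library than in the mock library of its number, and MYB36 is lower in every one.

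The phosphate signalling members gave 0 calls in the GR table, against 1.01% of all tested genes at 3 h and 0.484% at 6 h. For 10 tested genes, 0 calls are near those shares. Over the 10 tested, log2 fold changes lay between -0.17 and 0.52 at 3 h and between -0.09 and 0.61 at 6 h, with SE from 0.12 to 0.88. For PHR3 (Sobic.010G254300) the value was 0.11 ± 0.34 at 3 h and 0.61 ± 0.34 at 6 h, and for the PHR2 gene Sobic.002G121600 it was -0.05 ± 0.16 and 0.00 ± 0.16. For PHL11 the libraries of a group spread widely. PHL11 (Sobic.006G202300) had 12.6, 4.10 and 1.81 CPM in GR245DS at 3 h, against 8.44, 2.43 and 2.11 CPM in mock, and 12.6, 3.91 and 2.67 CPM in GR245DS at 6 h, against 11, 3.17 and 2.47 CPM in mock. The first library was the highest in all 4 groups.

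A change of the GR245DS response between 3 h and 6 h was called for 0 members by edgeR, against 0% of all tested genes, with 0 by DESeq2 and with 3 members (2.78%) at an unadjusted p below 0.05, against 1.16% of all tested genes. Between the mock groups, 6 h against 3 h, edgeR also called 0 members, against 0% of all tested genes, with 2 (1.85%) at an unadjusted p below 0.05, against 1.39% of all tested genes, and with 0 by DESeq2, against 0.0164% of the genes it fitted. Of the enzymes, 4 of 56 tested flavonoid genes were higher at 3 h and 2 at 6 h, and 4 of 64 lignin and cellulose synthesis names were higher at each time, with 0 lower, against 0.995% of all tested genes higher at 3 h and 0.48% at 6 h. Leaf markers of the GR table, normalized apart from the phosphorus table, had sums of 227 to 618 CPM in GR245DS and 187 to 501 CPM in mock at 3 h, and 200 to 562 CPM in GR245DS and 285 to 769 CPM in mock at 6 h. The third library held the highest sum in each group. At either time 0 of 14 tested leaf markers were called, against 1.01% of all tested genes at 3 h and 0.484% at 6 h. Their part in the members' values was not tested. In a fit without the third libraries of all groups, MYB93 (Sobic.010G008000) was called at 3 h (1.64, adjusted p = 0.0483 by edgeR). Over all genes that fit called 350 higher and 16 lower of 24965 at 3 h, against 247 and 3 of 24814 in the main fit. The cause of this difference was not tested.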

How the data were processed

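Per the labels, root RNA was sequenced in 24 libraries. The submitters' processing notes name HISAT2, fastp, DESeq2 1.22.1 and featureCounts, without their roles. No source used here states the genome build or the strandedness of counting. The authors deposited whole-number counts per gene and library, and FPKM, which are fragments per gene length and library size, made by the authors. The authors' own fold changes were not used.

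edgeR 4.0.16 in R 4.3.3 was run on the 12 libraries of each table at once (quasi-likelihood, robust, TMM scaling, filterByExpr), with 1 mean per group. Contrasts set each treatment against the mock of its time, the responses of the times against each other, and the mock groups against each other. P-values were Benjamini-Hochberg adjusted over all genes tested (threshold 0.05), and the fit was tested on simulated data. FPKM served only to compare levels between genes. Intervals cover counting error only.

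In the GR table, deviations of same-numbered libraries correlated above 0.1 in 18 of 18 pairs (0.139 to 0.76), so the numbers pair the libraries there. In the phosphorus table they did so in 3 of 18 (-0.288 to 0.463) and do not pair them. No source used here states what a number stands for.

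Members, name groups and partner lists were chosen with earlier results of these data known. Named genes are all PHR and APSR1 names, the 8 called members with the smallest adjusted p per direction in each phosphorus comparison (5 for GR245DS) with at least 1 CPM in the higher group, up to 4 per interaction, up to 3 per direction between mock groups, the 5 highest by FPKM per table, and called members of name groups with fewer than 8 tested. Alternatives were other scalings, DESeq2 1.42.0, no filter on low counts, the replicate block, leaving out libraries, and a 2-fold limit. Dropping the APSR1-like genes, and keeping only members with a Myb domain or MYB-CC motif, were chosen after seeing the data.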

Additional observations from a re-analysis of the deposited data

Results flagged for a closer look

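MYB52 (Sobic.005G104800) was singled out because its response to P deficiency differed between the days by a test of the difference itself: -1.73 on the log2 scale on day 7 and -0.77 on day 4, a difference of -0.96 (adjusted p = 0.0349 by edgeR). The fit without a filter on low counts gave an adjusted p of 0.0517 and the replicate block 0.0762, while DESeq2 gave 8.84e-05. A second MYB52 gene, Sobic.008G063400, showed a difference of -0.91 ± 0.30 (SE) that missed the threshold (adjusted p = 0.318 by edgeR).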

How the results depend on the processing

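The counts of members called in P deficiency against mock stayed within 1.5 times their values under every alternative run, except the 2-fold limit on day 7, which left 13 higher. Leaving out single libraries gave 16 to 19 higher and 32 to 41 lower on day 4, and 17 to 21 higher and 27 to 34 lower on day 7. The interaction of days gave 4 calls by DESeq2, and 0 with no filter, with the replicate block and with the 2-fold limit, and 0 to 1 on leaving out libraries. Mock on day 7 against day 4 gave 8 calls by DESeq2, 1 with the 2-fold limit and 0 to 7 on leaving out libraries. For GR245DS at 3 h, DESeq2 and the replicate block gave 2 higher and 1 lower each, scaling by total counts 1 lower, leaving out the third replicates 1 higher, and single libraries 0 to 1 higher and 0 to 0 lower. At 6 h DESeq2 gave 1 higher and 2 lower, the replicate block 2 higher and 1 lower, and single libraries 0 to 0 in both directions. The GR interaction and the mock hours stayed at 0 to 0. The cause of these shifts was not tested. Scaling by total counts moved the median of all genes to -0.15 at 3 h and -0.11 at 6 h, beside -0.02 and -0.03 with TMM. In the phosphorus table, where the numbers do not pair the libraries, 11 of 36 checks matched a library best with its own number. Of the values of named members under all alternatives, 4708 kept their side of the threshold, 65 lost a call, 11 gained one and 0 reversed. These values pool all 8 comparisons, also those with few or 0 calls, and a reversal was counted only where the main fit had a call. The 4708 therefore do not measure how stable the calls are. Over all members, 12 of the 56 calls of day 4 and 17 of the 57 of day 7 were lost without at least 1 library. Low genes such as MYB20 (Sobic.007G132600) rest on few counts. Of the 47 members untested in each table, 26 had 0 counts, and whether greater depth would reach the untested members was not tested.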

Other observations

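A MYB36 gene outside the tests, Sobic.K042600, was almost confined to 1 library. It had 0.247, 0.0272 and 19.6 CPM in P deficiency on day 7, against 0.0733, 0.0223 and 0.0616 CPM in mock, with 683 counts over the 12 libraries of the phosphorus table, 668 of them in P deficiency on day 7. The next highest untested member had 57 counts in all. The deposited protein match calls Sobic.K042600 a partial hypothetical protein, and it was chosen after its values were seen.

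Of 27 descriptions with 2 or more tested members, 5 held genes called in both directions on day 4 and 6 on day 7, while 10 on each day held 2 or more genes called in 1 direction only. As values chosen after they were seen, the MYB2 genes of day 4 include Sobic.009G032000 at a log2 fold change of 3.17 and Sobic.002G423300 at -1.51, and the MYB20 genes Sobic.007G132600 at 5.44 and Sobic.002G196100 at -0.80. The differences between such genes were not tested, and the last call was lost on leaving out any of 3 libraries (adjusted p of up to 0.0673 by edgeR).

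MYB36 (Sobic.003G034500) stood higher in P deficiency than in mock in the phosphorus table on both days, and lower in GR245DS than in mock at 6 h by the blocked fit. Its level was 12.5 to 30.5 CPM in GR245DS and 29.7 to 64.8 CPM in mock of the GR table, and 187 to 298 CPM in P deficiency and 56.7 to 88.0 CPM in mock of the phosphorus table. The tables were normalized separately and the levels were not tested across them.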
